A study of Homo sapiens with 24 samples.

Results

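The response of MDA-MB-468 cells to BETi-211, a small-molecule inhibitor of BET proteins, was described across all genes. The 6 libraries were chosen by cell line and treatment, out of 24 in the series. They are 2 libraries of MDA-MB-468 cells exposed to BETi-211 (1000 nM), set against 4 control libraries of the same line, 2 with Thalidomide (1000 nM) and 2 with the solvent DMSO (0.05% by volume). Every exposure lasted 3 h, and the series description calls the 2 libraries of a treatment independent biological replicates and names both DMSO and Thalidomide as controls. Thalidomide binds cereblon, the substrate receptor of a ubiquitin ligase, and is not a BET ligand. The same treatments were given to MDA-MB-157 and MDA-MB-231 cells, and a BET degrader, BETd-246 (100 nM), was given to all 3 lines. MDA-MB-468 is an established human breast cancer line of the basal subtype. The labels describe it as negative for the estrogen receptor ERα and the progesterone receptor and as lacking overexpression of HER2, so each result is that of a single cell line in culture.

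BET proteins carry bromodomains that read acetylated lysines on histones, and they help recruit P-TEFb, the kinase that releases paused RNA polymerase II into elongation. A BET inhibitor occupies the acetyl-lysine pocket and displaces these proteins from chromatin without degrading them. In many tumor cells, genes driven by large enhancers, with MYC as the best known, are sensitive to such compounds, and induction of HEXIM1, an inhibitor of P-TEFb, is widely used as a marker of BET inhibition. MDA-MB-468 cells are known for an amplified EGFR gene and for a mutant p53.

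Values were FPKM, that is, fragments per kilobase of transcript in relation to the fragments of the library, for 14114 genes. Within the BETi-211 pair the correlation of log2(FPKM + 1) across genes was 0.998, between control libraries it was 0.996 to 0.998, and between a BETi-211 and a control library it was 0.977 to 0.979. The BETi-211 libraries had a lower median FPKM (8.72 to 8.73, against 9.69 to 10.1 in the controls) and a larger share of FPKM in the 10 highest genes (12.5% to 13.04%, against 10.9% to 12%). Mitochondrially encoded genes took 8.44% to 8.93% of all FPKM in BETi-211 libraries and 7.18% to 8.33% in controls. FPKM gives a share of a library, so the amount of RNA per cell was not measured, and a general loss of RNA cannot be told apart from no change. The markers fitted the labelled cell type: the summed FPKM of 11 breast epithelial markers was 5057 to 5299 with BETi-211 and 4710 to 5250 in controls, and that of 9 measured basal markers was 2705 to 2879 with BETi-211 and 2623 to 2881 in controls. The sum was 15.6 to 16.6 with BETi-211 and 14.9 to 16.02 in controls for 6 mesenchymal markers, with SNAI2, TWIST1, CDH2 and ZEB1 under 1 FPKM, 1.27 to 1.29 and 1.22 to 1.504 for 2 measured immune markers, and 1.73 to 1.89 and 1.21 to 1.63 for 5 measured endothelial and fibroblast markers.

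BETi-211 changed a large part of the measured transcriptome within 3 h, mostly by less than 2-fold. Of 14114 genes, 7601 were called, that is, had a Benjamini-Hochberg adjusted p below 0.05 in limma, which is 53.9%. Of these, 3013 genes were higher (21.3%) and 4588 were lower (32.5%) with BETi-211. The changes are differences of log2(FPKM + 1) between the BETi-211 mean and the control mean, a scale on which changes of weakly expressed genes look smaller than they are, and the median over all genes was -0.01. A change of at least 2-fold on this scale was found for 192 called genes that rose (1.36%) and 311 that fell (2.2%), among them 158 and 295 protein-coding genes. Both BETi-211 libraries were above all 4 controls in 3845 genes (27.2%) and below all 4 in 5229 (37%).

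The balance of rises and falls depended on the scaling. Called genes were 3013 higher and 4588 lower as deposited, and 1995 and 5585 once every library was scaled to an equal sum. Quantile normalization gave 3958 higher and 3787 lower, scaling by upper quartiles gave 4602 and 3705, and scaling by median ratios gave 4442 and 3720. The share of called genes that were higher was thus 39.6% as deposited and 26.3%, 51.1%, 55.4% and 54.4%. Among changes of at least 2-fold, the share that were higher was 38.2% as deposited and 30.9%, 52%, 49.7% and 49.3% in the same order. The median over all genes moved to between -0.08 and 0.04, so small changes below are read against that shift. A change of 1 or more on the log2 scale is many times larger than it, but genes near 2-fold can cross the line. Rises and falls of at least 2-fold numbered 192 and 311 as deposited, 234 and 216 under quantile normalization, and 174 and 390 under column-total scaling. Spans, promoters and shares in other lines below use the deposited values and were not recomputed under other scalings.

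**Figure D1:**
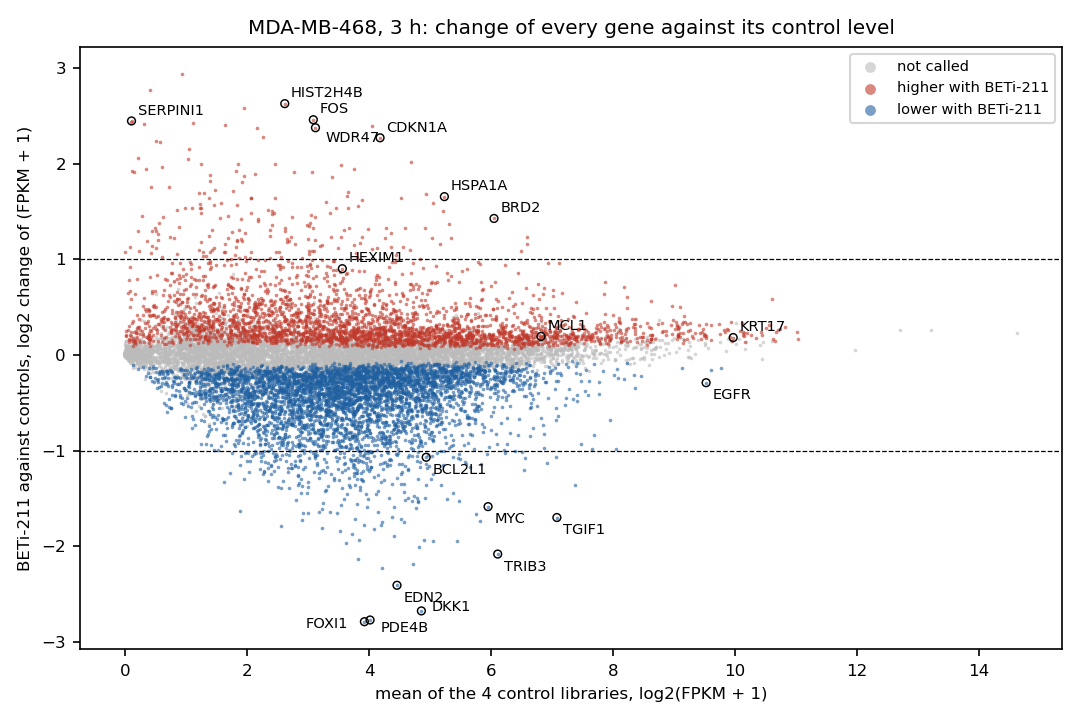
Change with BETi-211 against controls in MDA-MB-468 (log2 of FPKM + 1, vertical axis) against the mean level in the 4 controls (log2 of FPKM + 1, horizontal axis), with a point for each of 14114 genes, colored where the adjusted p was below 0.05, and dashed lines at a 2-fold change. The points spread below 0 at middle levels, where FOXI1, PDE4B and DKK1 reach about -2.7, and genes of low level in the controls, such as SERPINI1, lie among the large rises, while KRT17 and EGFR, at high levels, stay within the dashed lines.

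The genes that fell most encode secreted signals, a phosphodiesterase and a forkhead factor. FOXI1 (chr5:170105897-170109725 on GRCh38), a forkhead transcription factor, had 1.22 and 1.18 FPKM in BETi-211 libraries, against 14.3 and 13.8 FPKM with DMSO and 15.02 and 13.6 FPKM with Thalidomide. Both BETi-211 values lay far below every control, a log2 change of -2.79 ± 0.05 (SE; adjusted p = 1.34e-15, limma). PDE4B, a phosphodiesterase that degrades cyclic AMP, had 1.27 and 1.48 FPKM with BETi-211, against 16.3 and 14.7 with DMSO and 15.9 and 13.9 with Thalidomide, a log2 change of -2.77 ± 0.07 (SE). DKK1, a secreted antagonist of Wnt signaling, had 3.34 and 3.77 FPKM with BETi-211, against 29.02 and 28.1 with DMSO and 27.5 and 27.6 with Thalidomide, a log2 change of -2.67 ± 0.06 (SE). In all 3 genes the groups were separated by a wide gap and the 4 controls lay close together.

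The next falls had the same form. EDN2, the peptide hormone endothelin 2, had 3.25 and 3.05 FPKM with BETi-211, against 20.8 and 19.9 with DMSO and 20.9 and 22.4 with Thalidomide, a log2 change of -2.41 ± 0.04 (SE). TRIB3, a pseudokinase induced by endoplasmic reticulum stress and amino acid shortage, had 15.7 and 15.1 FPKM with BETi-211, against 67.9 and 64.8 with DMSO and 71.5 and 68.4 with Thalidomide, a log2 change of -2.08 ± 0.06 (SE). TSKU, a secreted leucine-rich protein, fell by 2.22 on the log2 scale, FJX1 by 2.18, and LIF, a cytokine of the interleukin-6 family, by 2.13. BCL3, a nuclear co-regulator of NF-kB, fell by 1.97, CCDC71L by 1.95 and PLAU, the urokinase plasminogen activator, by 1.95. PLAU illustrates how tight the controls were: it had 7.70 and 7.43 FPKM with BETi-211, against 31.5 and 31.2 with DMSO and 33.1 and 32.2 with Thalidomide.

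The largest rises included a histone, an immediate-early gene, a growth factor and a cell cycle inhibitor. FOS (chr14:75278774-75282230), the AP-1 subunit that answers growth factors within minutes, had 38.7 and 51.1 FPKM with BETi-211, against 5.92 and 8.36 with DMSO and 5.34 and 10.4 with Thalidomide. Its log2 change was 2.46 ± 0.18 (SE; adjusted p = 6.08e-09), and its libraries varied more than those of the other leading genes without overlap between the groups. CDKN1A (chr6:36676460-36687339), the cyclin-dependent kinase inhibitor p21, had 82.8 and 90.4 FPKM with BETi-211, against 16.5 and 16.6 with DMSO and 16.98 and 18.6 with Thalidomide, a log2 change of 2.27 ± 0.06 (SE). SERTAD1, a co-regulator of E2F factors and CDK4, had 85.3 and 87.2 FPKM with BETi-211, against 15.5 and 13.95 with DMSO and 16.4 and 16.5 with Thalidomide, a log2 change of 2.40 ± 0.08 (SE). CDKN1A and SERTAD1 were already well expressed in the controls.

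Other protein-coding genes rose from lower control levels. WDR47, a microtubule-associated WD-repeat protein, had 44.1 and 44.3 FPKM with BETi-211, against 8.06 and 7.68 with DMSO and 7.69 and 7.40 with Thalidomide, a log2 change of 2.38 ± 0.04 (SE). HBEGF, a ligand of the EGF receptor, had 22.01 and 22.3 FPKM with BETi-211, against 3.73 and 3.51 with DMSO and 3.86 and 4.06 with Thalidomide, a log2 change of 2.28 ± 0.05 (SE). LFNG, a fringe glycosyltransferase that modifies Notch receptors, rose by 2.38, FAM46C, a non-canonical poly(A) polymerase, by 2.58, the ubiquitin ligase TRIM36 by 2.43 and FAM222A by 2.41 on the log2 scale. SERPINI1, the protease inhibitor neuroserpin, was close to absent in the controls, with 0.110 and 0.0735 FPKM with DMSO and 0.0582 and 0.0603 with Thalidomide, and had 4.86 and 4.87 FPKM with BETi-211. Its log2 change of 2.45 ± 0.05 (SE) therefore understates the ratio of the levels.

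HIST2H4B (chr1:149854045-149861210), a histone H4 gene, had 37.5 and 36.1 FPKM with BETi-211, against 4.31 and 5.31 with DMSO and 4.91 and 6.04 with Thalidomide, a log2 change of 2.63 ± 0.07 (SE). A near-identical copy, HIST2H4A, lies close by, so the reads may be shared between the copies. HIST2H4B also overlaps HIST2H3A, another histone gene, on the other strand, and the limit on strand given next applies to this pair too. The largest rise of all belonged to AP000692.10 (chr21:36319792-36320670), an antisense RNA gene that overlaps MORC3 on the other strand. The kit does not mark strand, so reads of such pairs cannot be told apart. AP000692.10 had 13.8 and 13.3 FPKM with BETi-211, against 0.727 and 1.02 with DMSO and 0.967 and 0.926 with Thalidomide, a log2 change of 2.93 ± 0.09 (SE), while MORC3 itself fell by 0.31. Processed pseudogenes, which can take reads of their parent genes, also stood among the 12 largest rises: RP1-34B20.4 had 8.48 and 7.55 FPKM with BETi-211, against 0.168 to 0.546 in the 4 controls, and RP11-763B22.3 had 6.03 and 5.22 FPKM with BETi-211, against 0.191 to 0.358 in the controls.

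**Figure D2:**
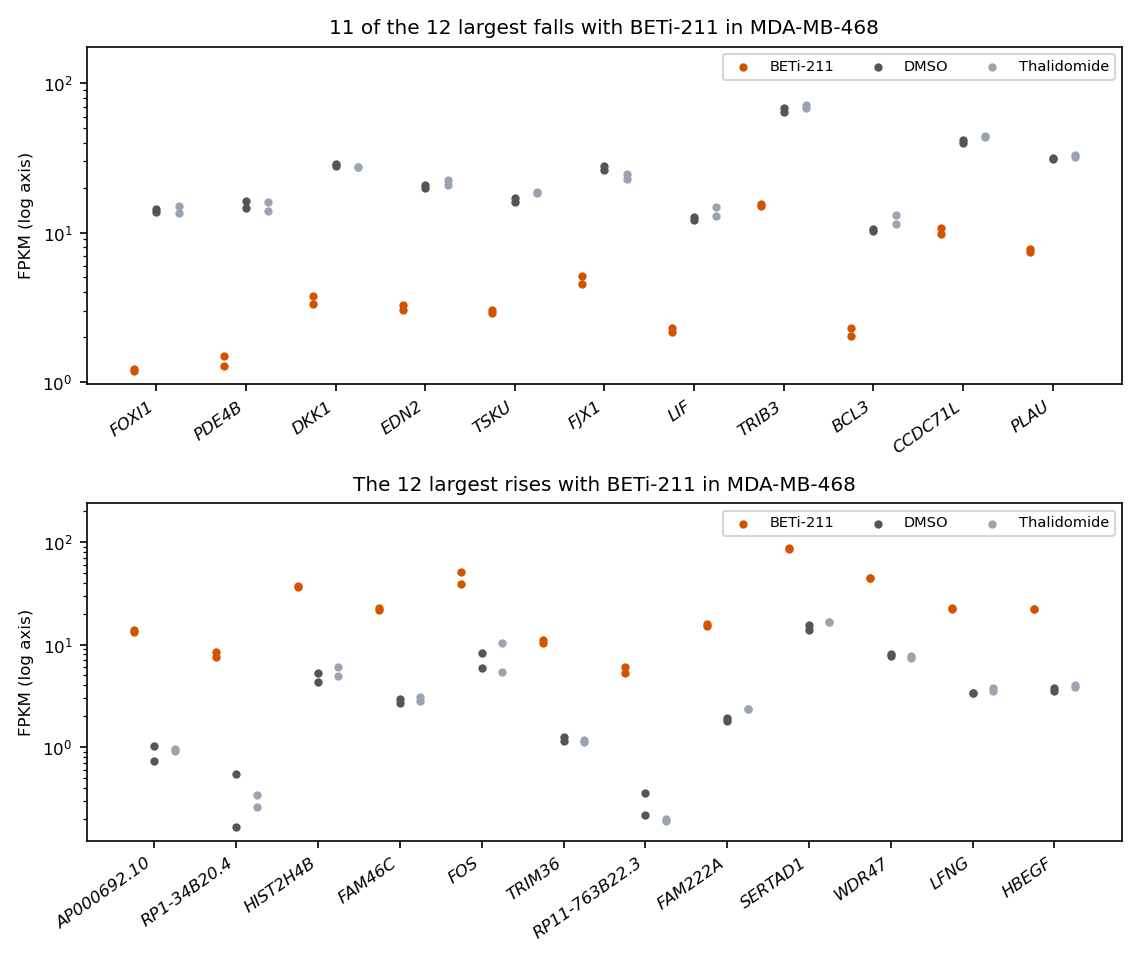
FPKM (log axis) in each library for 11 of the 12 largest falls (upper panel) and 12 largest rises (lower panel) with BETi-211 in MDA-MB-468, with a point per library, 2 per treatment. In every gene shown both BETi-211 points lie beyond all 4 control points, and FOS lies at 38.7 and 51.1 FPKM with BETi-211 and 5.34 to 10.4 FPKM in the controls.

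The protein-coding genes that changed at least 2-fold were shorter and had fewer exons than other genes. The median span in the annotation was 12.7 kb for the 158 that rose, 19.9 kb for the 295 that fell, 35 kb for 5102 that were not called and 33.2 kb for all 12046. The median number of exons was 5 in genes that rose, 6 in genes that fell, 10 in genes not called and 9 in all. Genes with a single exon made up 11 of 158 (6.96%) and 17 of 295 (5.76%), against 61 of 5102 genes not called (1.2%) and 212 of all 12046 (1.76%). The median control level was 4.26 FPKM in genes that rose, 13.2 FPKM in genes that fell and 12.4 FPKM in all genes.

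**Figure D3:**
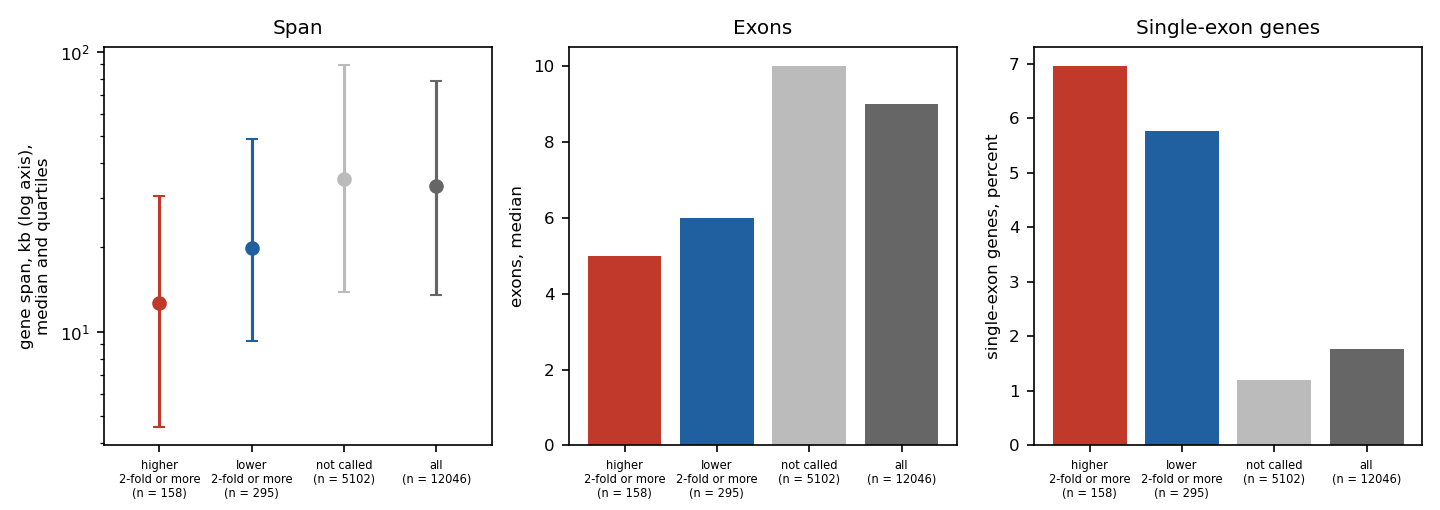
Gene span (kb, log axis, median with quartiles), median number of exons and percent of single-exon genes for protein-coding genes that rose at least 2-fold (158), fell at least 2-fold (295), were not called (5102) and for all 12046. Span and exon number are lowest in the genes that rose, 12.7 kb and 5 exons, and highest in the genes that were not called, 35 kb and 10 exons.

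A TATA box was found in a larger share of the promoters of genes that rose than of all measured genes. RefSeq promoters on GRCh38.p14, from 250 bases before to 50 after a start, were matched by symbol for 134 of 158 genes that rose, 236 of 295 that fell and 9804 of 12046 in all, with 169, 396 and 14379 listed starts. The letters TATAAA began 40 to 15 bases before the start on the strand of the gene in 20 promoters of genes that rose (11.8%), 6 of genes that fell (1.52%), 239 of all measured genes (1.66%) and 2.36% of the 35116 promoters in the table. Anywhere in the window on either strand, TATAAA was found in 17.8%, 7.58%, 6.25% and 11.5% in the same order. The other motifs, searched on both strands in the whole window, were GGGCGG, found in 80.5% of promoters of genes that rose, 60.1% of genes that fell and 66.7% of all measured genes, CCAAT in 46.2%, 35.4% and 34.9%, CACGTG in 5.92%, 8.84% and 9.21%, and TGACGTCA in 3.55%, 3.54% and 2.82%. These shares were not tested, and a match is a run of letters and not a shown binding site.

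The promoters of FOS, HEXIM1 and HSPA1A, which rose, and of DKK1, which fell, are shown because each holds TATAAA (in capitals) at that distance. They were picked with their values known. HEXIM1 rose by 0.90 on the log2 scale, less than 2-fold, so its promoter is not among those counted above for genes that rose. The capitals begin 33, 29, 30 and 30 bases before the RefSeq start in the order shown, and all 4 genes have a single listed start on the plus strand, in the windows chr14:75278578-75278877, chr17:45148225-45148524, chr6:31815293-31815592 and chr10:52314031-52314330.
FOS: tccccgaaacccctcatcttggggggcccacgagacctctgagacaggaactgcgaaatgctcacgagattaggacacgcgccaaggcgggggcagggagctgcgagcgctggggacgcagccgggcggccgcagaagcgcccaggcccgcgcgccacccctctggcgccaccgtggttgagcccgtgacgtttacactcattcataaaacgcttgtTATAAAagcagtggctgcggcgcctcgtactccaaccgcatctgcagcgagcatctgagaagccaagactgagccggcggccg
HEXIM1: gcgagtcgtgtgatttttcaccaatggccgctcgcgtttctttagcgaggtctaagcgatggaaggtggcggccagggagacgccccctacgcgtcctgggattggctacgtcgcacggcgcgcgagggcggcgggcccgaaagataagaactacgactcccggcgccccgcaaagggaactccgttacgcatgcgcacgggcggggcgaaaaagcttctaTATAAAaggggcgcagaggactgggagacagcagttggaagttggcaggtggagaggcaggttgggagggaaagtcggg
HSPA1A: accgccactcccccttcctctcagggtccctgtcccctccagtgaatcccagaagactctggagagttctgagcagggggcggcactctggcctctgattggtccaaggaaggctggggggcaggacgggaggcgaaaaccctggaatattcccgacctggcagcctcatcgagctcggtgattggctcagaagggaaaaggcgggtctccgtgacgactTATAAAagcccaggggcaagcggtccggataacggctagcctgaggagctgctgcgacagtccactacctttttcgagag
DKK1: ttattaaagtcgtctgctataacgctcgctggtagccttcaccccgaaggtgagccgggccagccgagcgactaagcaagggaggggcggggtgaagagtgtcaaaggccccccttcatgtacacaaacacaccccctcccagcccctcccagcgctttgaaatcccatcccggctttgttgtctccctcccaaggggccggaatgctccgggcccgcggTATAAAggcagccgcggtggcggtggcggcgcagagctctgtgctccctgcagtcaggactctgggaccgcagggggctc

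Among the genes of the BET family and its partners, BRD2 rose and the acetyltransferases fell. BRD2 (chr6:32968660-32981505), a ubiquitous BET protein, had 176.5 and 177.8 FPKM with BETi-211, against 60.9 and 65.9 with DMSO and 63.6 and 70.7 with Thalidomide, a log2 change of 1.43 ± 0.04 (SE; adjusted p = 1.32e-13). BRD3, another BET protein, had 4.62 and 3.998 FPKM with BETi-211, against 3.52 to 4.41 in the controls, so the groups overlapped and no change was called (adjusted p = 0.266). EP300 and CREBBP, the paralogous histone acetyltransferases, fell by 0.81 and 0.63 on the log2 scale.

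The 7SK particle, which holds P-TEFb inactive, showed rises of its inhibitor and its capping enzyme. HEXIM1 (chr17:45148502-45152101), whose promoter is shown above, had 21.8 and 20.3 FPKM with BETi-211, against 9.92 and 10.2 with DMSO and 11.04 and 12.1 with Thalidomide, a log2 change of 0.90 ± 0.05 (SE; adjusted p = 4.09e-10). MEPCE, which caps the 7SK RNA, had 56.3 and 55.7 FPKM with BETi-211, against 31.9 to 34.2 in the controls, a log2 change of 0.76 ± 0.04 (SE). CCNT2, a cyclin subunit of P-TEFb, and CDK12, an elongation kinase, fell by 0.83 and 0.47. Of the 17 measured of 18 listed genes of P-TEFb, the 7SK particle and elongation, 3 rose and 5 fell, close to the shares among all genes, and their median of -0.04 had the other sign, 0.04 to 0.05, under quantile, upper-quartile and median-of-ratios scaling. By at least 2-fold, 0 of these genes rose and 1 fell. Of 44 genes for Mediator, which links activators to the polymerase, and for RNA polymerase II subunits, 13 rose (29.5%) and 21 fell (47.7%). The shares among all genes were 21.3% and 32.5%, and the median of the 44 was -0.08. Under quantile normalization 16 rose and 15 fell (median -0.03), under upper-quartile scaling 16 rose and 17 fell, and under column-total scaling 8 rose and 23 fell (median -0.16). The 4 with the smallest adjusted p were all Mediator subunits that fell: MED7 by 1.19, MED9 by 1.01, MED6 by 0.90 and MED22 by 0.85.

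MYC fell and its paralog MYCL rose. MYC, the growth-promoting bHLH factor, had 18.5 and 20.95 FPKM with BETi-211, against 59.4 and 58.9 with DMSO and 62.5 and 63.0 with Thalidomide. Both BETi-211 values were about a factor of 3 below every control (fold of 3.00 on FPKM + 1; log2 change -1.58 ± 0.07 (SE), adjusted p = 7.91e-12). MYCL had 4.61 and 4.59 FPKM with BETi-211, against 0.574 to 0.711 in the 4 controls, a log2 change of 1.76 ± 0.05 (SE), so that its level stayed well under that of MYC per length. MAX, the partner of both, had 28.7 and 27.0 FPKM with BETi-211, against 28.5 to 31.3 in the controls, and was not called (adjusted p = 0.056). MGA and MLX, further members of the network, fell by 0.87 and 0.63. Of 11 measured of 12 listed genes of the network, 5 rose and 4 fell.

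More genes for making ribosomes in the nucleolus fell than rose, and as deposited most cytosolic ribosomal protein genes rose; both counts depended on the scaling. Of 24 nucleolar biogenesis genes, 14 fell and 5 rose, with a median of -0.16, and 10 fell and 8 rose under upper-quartile and median-of-ratios scaling, with medians of -0.07 and -0.08. RRS1, an assembly factor of the large subunit, fell by 1.23, PPAN by 1.22, WDR43, a small-subunit processing factor, by 1.03 and POLR1B, a subunit of RNA polymerase I, by 0.70. Of 78 cytosolic ribosomal protein genes, 46 rose and 1 fell, with a median of 0.19 that ranged from 0.01 (quantile normalization, with 10 higher and 5 lower) to 0.27 across scalings. RPS2 had 352.6 and 348.3 FPKM with BETi-211, against 254.3 to 291.4 in the controls, a log2 change of 0.34 ± 0.04 (SE). Many ribosomal protein genes have near-identical processed pseudogenes, with which reads may be shared. Of 77 mitochondrial ribosomal protein genes, 21 fell (27.3%) and 6 rose (7.79%), against 32.5% and 21.3% of all genes, and 50 were not called. Their median of -0.01 was 0.07 under upper-quartile and median-of-ratios scaling, with 15 lower and 26 higher under upper-quartile scaling. MRPL44 stood apart, with 8.54 and 7.32 FPKM with BETi-211 against 22.1 to 23.9 in the controls.

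Most immediate-early genes, which cells transcribe at once on stimulation, rose. Of 24 measured of 27 listed, 16 rose and 4 fell, with a median of 0.56. Besides FOS, the AP-1 subunit JUND had 73.3 and 77.1 FPKM with BETi-211, against 25.8 to 32.9 in the controls, a log2 change of 1.33 ± 0.06 (SE). EGR1, a zinc finger factor induced by growth signals, had 17.8 and 20.4 FPKM with BETi-211, against 5.40 to 9.18 in the controls, a log2 change of 1.36 ± 0.15 (SE). ZFP36, which promotes decay of AU-rich mRNAs, rose by 1.24, and the nuclear receptor NR4A3 by 1.135. The Fos-related subunits moved the other way: FOSL2 had 15.5 and 16.4 FPKM with BETi-211, against 32.8 to 34.1 in the controls, a fall of 1.02 on the log2 scale, and FOSL1 fell by 0.78. Members of the AP-1 family thus changed in opposite directions.

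The feedback genes of MAP kinase signaling were also divided. Of 15 measured of 17 listed DUSP, SPRY and SPRED genes, 6 rose and 8 fell, with a median of -0.35. The dual-specificity phosphatases DUSP4, DUSP5 and DUSP16 fell by 1.17, 1.05 and 0.98 on the log2 scale. DUSP10, which acts on p38 and JNK, had 5.85 and 6.09 FPKM with BETi-211, against 1.93 to 2.28 in the controls, a rise of 1.16. EGFR itself had 582.4 and 624.8 FPKM with BETi-211, against 678.4 and 764.4 with DMSO and 745.1 and 764.6 with Thalidomide, a log2 change of -0.29 ± 0.07 (SE; adjusted p = 0.00295). Without the first BETi-211 library this call was lost (log2 change -0.24, adjusted p = 0.0532). FGFR3, a receptor of fibroblast growth factors, had 13.3 and 13.5 FPKM with BETi-211, against 2.33 to 2.94 in the controls, a 4.01-fold rise on FPKM + 1, whereas EPHA2 and MET fell by 0.78 and 0.47. In the receptor tyrosine kinase list of 19 genes, of which 18 were measured, 6 rose (33.3%) and 7 fell (38.9%), against 21.3% and 32.5% of all genes. The median of this list, -0.08, became 0.05 under quantile normalization.

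Most inhibitors of cyclin-dependent kinases rose. Of 8 inhibitor genes, 6 rose and 1 fell, with a median of 0.49. Besides CDKN1A, CDKN2B, the p15 protein encoded beside p16, had 31.2 and 32.3 FPKM with BETi-211, against 12.98 to 13.8 in the controls, a log2 change of 1.18 ± 0.03 (SE). CDKN1C, the p57 protein, had 7.04 and 8.93 FPKM with BETi-211, against 1.72 to 2.26 in the controls, a log2 change of 1.59 ± 0.08 (SE), and CDKN2D, p19, rose by 0.63. The fall was that of CDKN1B, the p27 protein, with 11.7 and 12.9 FPKM with BETi-211, against 14.9 to 17.3 in the controls, a log2 change of -0.37 ± 0.07 (SE).

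Of 18 measured of 19 listed G1 cyclins, CDKs, CDC25A and E2Fs, 9 fell (50%) and 5 rose (27.8%), against 32.5% and 21.3% of all genes. Their median of -0.09 was -0.01 under quantile, upper-quartile and median-of-ratios scaling (7 lower and 6 higher under quantile normalization). E2F2, an activator of S-phase genes, had 6.18 and 5.84 FPKM with BETi-211, against 21.9 to 22.3 in the controls, a log2 change of -1.72 ± 0.04 (SE). E2F8 fell by 1.32, E2F4 by 0.80, and the phosphatase CDC25A by 0.61. CCND1, cyclin D1, had 34.8 and 36.8 FPKM with BETi-211, against 42.1 to 46.3 in the controls, a fall of 0.29. CDK6 had 6.94 and 7.27 FPKM with BETi-211, against 7.55 to 7.91 in the controls; its log2 change of -0.10 (adjusted p = 0.0384) was 0.06 under quantile normalization and was not called under that or 9 other alternatives.

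Genes of DNA replication and mitosis fell slightly, and so did genes of recombination repair. Of 28 genes of S, G2 and M phase, 17 fell and 2 rose, with a median of -0.19, between -0.28 and -0.11 across scalings (11 lower and 4 higher under median-of-ratios scaling). The mitotic kinase AURKA had 40.3 and 38.0 FPKM with BETi-211, against 73.1 to 77.5 in the controls, a log2 change of -0.93 ± 0.04 (SE), and BUB1B, KIF23 and PLK4 fell by 0.68, 0.67 and 0.65. Of 26 genes of homologous recombination and the Fanconi pathway, 17 fell and 0 rose, with a median of -0.24, between -0.32 and -0.11 across scalings (11 lower and 1 higher under quantile normalization). FANCF, an adaptor of the Fanconi core complex, had 1.21 and 1.17 FPKM with BETi-211, against 3.26 to 3.53 in the controls, a log2 change of -1.003. PALB2, the partner of BRCA2, fell by 0.76, BARD1, the partner of BRCA1, by 0.54, and the helicase BLM by 0.49.

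Most survival genes fell and MCL1 rose slightly. Of 10 measured of 11 listed survival genes, 7 fell and 1 rose, with a median of -0.48. BCL2L1, which encodes BCL-XL, had 13.5 and 13.8 FPKM with BETi-211, against 30.1 and 29.1 with DMSO and 30.1 and 29.5 with Thalidomide, a log2 change of -1.07 ± 0.04 (SE; adjusted p = 8.71e-13). BIRC3 and XIAP, inhibitors of apoptosis, fell by 0.73 and 0.51, and CFLAR, which blocks caspase 8 activation, by 0.70. MCL1 had 122.9 and 134.3 FPKM with BETi-211, against 108.7 and 114.5 with DMSO and 112.6 and 112.6 with Thalidomide, a log2 change of 0.20 ± 0.05 (SE; adjusted p = 0.00155). Its small rise was not called under quantile normalization (0.10), under column-total scaling (0.11) or without the second BETi-211 library (0.13).

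Of 21 measured of 22 listed pro-apoptotic and death receptor genes, 6 rose (28.6%) and 8 fell (38.1%), near the 21.3% and 32.5% among all genes, with a median of -0.07 that was 0.01 to 0.02 under quantile, upper-quartile and median-of-ratios scaling. BCL2L11, the BH3-only protein BIM, had 15.6 and 14.03 FPKM with BETi-211, against 6.60 to 7.92 in the controls, a log2 change of 0.95 ± 0.13 (SE). PMAIP1, the BH3-only protein NOXA, had 34.4 and 35.3 FPKM with BETi-211, against 14.9 to 16.2 in the controls, a rise of 1.11. BMF, also a BH3-only protein, had 1.15 and 1.33 FPKM with BETi-211, against 3.54 to 3.82 in the controls, a fall of 1.07, and TNFRSF1A, the main receptor of tumor necrosis factor, fell by 1.18. Of 20 p53 target genes, 11 rose and 6 fell, with a median of 0.21. SESN2, an inhibitor of mTORC1 that p53 and stress induce, rose by 1.25 beside CDKN1A and PMAIP1, and the kinase PLK2 fell by 1.12.

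Most stress and chaperone genes rose, though not all members of the stress response did. Of 20 genes that belong to the integrated stress response or to the response to unfolded proteins, 12 rose and 5 fell, with a median of 0.32. PPP1R15A, which directs dephosphorylation of the initiation factor eIF2α, had 44.6 and 43.6 FPKM with BETi-211, against 19.9 to 21.8 in the controls, a log2 change of 1.05 ± 0.04 (SE). TRIB3 and CEBPG, a partner of ATF4, fell by 2.08 and 0.94. Of 15 heat shock proteins and co-chaperones, 9 rose and 2 fell, with a median of 0.31, which was 0.12 under quantile normalization (7 higher, 0 lower). HSPA1A, the inducible HSP70 whose promoter is shown above, had 105.2 and 131.4 FPKM with BETi-211, against 34.6 and 37.7 with DMSO and 33.9 and 40.7 with Thalidomide, a log2 change of 1.66 ± 0.10 (SE). HSPA1B is a near-identical copy and rose by 1.68, so the split of reads between the copies is uncertain. The HSP40 gene DNAJB1 had 185.4 and 198 FPKM with BETi-211, against 86.1 to 91.9 in the controls, a rise of 1.09, and the co-chaperone BAG3 rose by 0.56.

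Among lysosomal, sterol and respiratory genes more members rose than fell, with small medians that depended on the scaling. Of 27 genes of autophagy and the lysosome, 16 rose and 4 fell, with a median of 0.14 (10 and 6, median 0.05, under column-total scaling). The autophagy receptor SQSTM1 had 346.3 and 366.2 FPKM with BETi-211, against 200.9 to 248.8 in the controls, a log2 change of 0.64 ± 0.08 (SE), and the lysosomal enzymes GLA and CTSL rose by 0.52 and 0.49. TFEB, the transcription factor that drives lysosomal genes, had 0.963 and 1.01 FPKM with BETi-211, against 2.91 to 3.14 in the controls, a fall of 1.02. Of 20 genes of sterol response and cholesterol synthesis, 10 rose and 4 fell, with a median of 0.11 (7 and 6, median 0.04, under column-total scaling). INSIG1, which retains the sterol sensor in the endoplasmic reticulum, had 48.7 and 45.9 FPKM with BETi-211, against 17.7 to 19.1 in the controls, a log2 change of 1.32 ± 0.04 (SE). IDI1 rose by 0.94, and HMGCS1 fell by 0.44.

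Of 28 nuclear genes of the respiratory chain, 13 rose and 0 fell, with a median of 0.13, and ATP5B rose by 0.29, COX5B by 0.25, COX5A by 0.24 and COX4I1 by 0.19. Under quantile normalization 7 were higher and 1 lower, with a median of 0.03. Of 37 mitochondrially encoded genes, 7 rose (18.9%, against 21.3% of all genes), 0 fell and 30 were not called. Their median was 0.26, between 0.18 and 0.34 across scalings, and only 1 was called under quantile normalization. The mitochondrial share of FPKM and the share of the 10 highest genes, given above, were both larger in the BETi-211 libraries, and their part in these small rises was not tested.

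Most genes of NF-kB signaling fell. Of 19 measured of 22 listed NF-kB subunits, feedback genes and cytokines, 15 fell and 2 rose, with a median of -0.39. LIF, of this list, had 2.15 and 2.29 FPKM with BETi-211, against 12.8 and 12.2 with DMSO and 12.9 and 14.8 with Thalidomide. CXCL8, the neutrophil chemokine interleukin 8, had 1.32 and 1.35 FPKM with BETi-211, against 3.63 to 3.99 in the controls, a fall of 1.04, and TNFAIP2 fell by 1.06. Interferon genes did not move in a single direction: of 22 measured of 23 listed IRF, STAT and interferon response genes, 9 rose and 6 fell, with a median of 0.08 (6 and 6, median 0.01, under column-total scaling). IRF1 had 13.6 and 15 FPKM with BETi-211, against 38.6 and 38.6 with DMSO and 43.0 and 42.2 with Thalidomide, a log2 change of -1.45 ± 0.05 (SE). IRF7, a regulator of type I interferon genes, had 36.3 and 37.5 FPKM with BETi-211, against 8.07 to 11.3 in the controls, a log2 change of 1.87 ± 0.08 (SE). Likewise the interferon-induced genes IFIT3 and IFI6 changed by -1.55 and 1.21.

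Transcription factors of epithelial identity fell. All 12 measured of 16 listed breast epithelial lineage factors were called lower, also under each of the 4 other scalings, with a median of -0.56 between -0.63 and -0.46. ELF3, an epithelial ETS factor, had 42.4 and 44.9 FPKM with BETi-211, against 88.7 to 98.2 in the controls, a log2 change of -1.08 ± 0.05 (SE). EHF and GRHL2, further epithelial regulators, had log2 changes of -1.02 and -1.002, and GATA3, the luminal factor, which was low here, had 2.96 and 3.37 FPKM with BETi-211, against 5.55 to 6.89 in the controls, a fall of 0.78. Among epithelial and basal markers that are not transcription factors, the splicing regulator ESRP1 fell by 0.32. CDH1, E-cadherin, had 46.3 and 48.4 FPKM with BETi-211, against 36.4 to 38.8 in the controls, a rise of 0.31, and KRT5 had 789.8 and 795.7 FPKM with BETi-211, against 698.5 to 793.4 in the controls, and was not called (adjusted p = 0.0677). The direction of KRT5 depended on the scaling: it was called lower under quantile normalization (-0.13, adjusted p = 0.00253) and called higher under upper-quartile and median-of-ratios scaling (0.16 in both), with DMSO alone as control (0.14) and without the first DMSO library (0.10). Of the 11 epithelial markers, 3 rose and 3 fell (2 and 6 under quantile normalization). Of the 9 basal markers, 2 rose (22.2%, against 21.3% of all genes) and 1 fell, and 0 were higher under column-total scaling. KRT17, 1 of the 2 basal rises, rose by 0.18 as deposited, and under quantile normalization its change was -0.03. The call of KRT17 was lost under 6 of 18 alternatives, and that of the other basal rise under 11. Of the mesenchymal, immune, and endothelial and fibroblast markers only COL1A1 was called, at 1.20 to 1.71 FPKM in all 6 libraries. Of the 12 measured of 14 listed KLF genes, 7 fell and 3 rose, with a median of -0.36, and KLF6, KLF3, KLF11 and KLF13 fell by 1.64, 1.59, 1.35 and 1.17.

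In the TGF-beta and BMP pathway, 14 of 18 ID and feedback genes fell and 3 rose, with a median of -0.36. TGIF1, a co-repressor of SMAD signaling, had 37.3 and 44.6 FPKM with BETi-211, against 135.3 and 130 with DMSO and 135 and 137.8 with Thalidomide, a log2 change of -1.70 ± 0.07 (SE). TGIF2 and the ubiquitin ligase SMURF1 fell by 0.78 and 0.65. ID4, an inhibitor of bHLH factors marking basal progenitors, had 35.6 and 39.3 FPKM with BETi-211, against 63.3 to 69.3 in the controls, a fall of 0.82. Its paralog ID2 went the other way, with 31.2 and 30.1 FPKM with BETi-211 against 7.12 to 7.66 in the controls, a rise of 1.92 ± 0.05 (SE).

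In the Notch pathway, 4 of 14 measured of 18 listed genes rose and 4 fell (28.6% each), against 21.3% and 32.5% of all genes. The Notch median of -0.05 had no stable sign across scalings. The ligand DLL4 had 3.20 and 2.97 FPKM with BETi-211, against 0.0619 to 0.0911 in the controls, a rise of 1.92 ± 0.05 (SE). Beside LFNG, the feedback inhibitor NRARP rose by 1.19, and the co-activator MAML1 fell by 0.43. In the Wnt pathway, 12 of 21 measured of 22 listed genes fell and 3 rose, with a median of -0.25. AXIN2, a feedback target of β-catenin, had 0.770 and 0.799 FPKM with BETi-211, against 2.62 to 2.92 in the controls, a fall of 1.06; the ligand WNT5A fell by 0.76, and the receptor FZD7 had 13.9 and 14.5 FPKM with BETi-211, against 4.95 to 5.48 in the controls, a rise of 1.30. Of 17 genes of YAP, TEAD and their targets, 10 fell and 2 rose, with a median of -0.29: the LIM protein AJUBA fell by 1.36, tissue factor (F3) by 1.01, and the angiomotins AMOTL2 and AMOTL1 by 0.93 and 0.72.

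As deposited, most histone genes rose and most zinc finger genes fell. Of 65 genes with HIST symbols, 38 rose and 4 fell, with a median of 0.20, between 0.13 and 0.28 across scalings (30 higher and 10 lower under quantile normalization and under column-total scaling). HIST1H4I had 11.8 and 12.4 FPKM with BETi-211, against 3.08 to 3.47 in the controls, a rise of 1.64, and HIST3H2A and HIST2H2BE rose by 0.76 and 0.50, while HIST1H3E fell by 0.69. Copies of these genes are similar in sequence, and RNA was depleted of ribosomal RNA and not selected for poly(A) tails, so histone transcripts without a tail could be read. Of 462 ZNF genes, 265 fell and 86 rose, with a median of -0.24, between -0.30 and -0.13 across scalings. Under quantile normalization 223 were lower and 113 higher. ZNF260 had 8.45 and 8.27 FPKM with BETi-211, against 20.8 to 24.98 in the controls, a fall of 1.35, and ZNF280C had 16.7 and 17.3 FPKM with BETi-211, against 5.37 to 5.82 in the controls, a rise of 1.44. Of 19 splicing factors of the SR family and CLK kinases, 8 fell (42.1%) and 4 rose (21.1%), against 32.5% and 21.3% of all genes. Their median of -0.10 was -0.02 under upper-quartile and median-of-ratios scaling. SRSF4 fell by 0.84 and SRSF3 by 0.34.

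**Figure D4:**
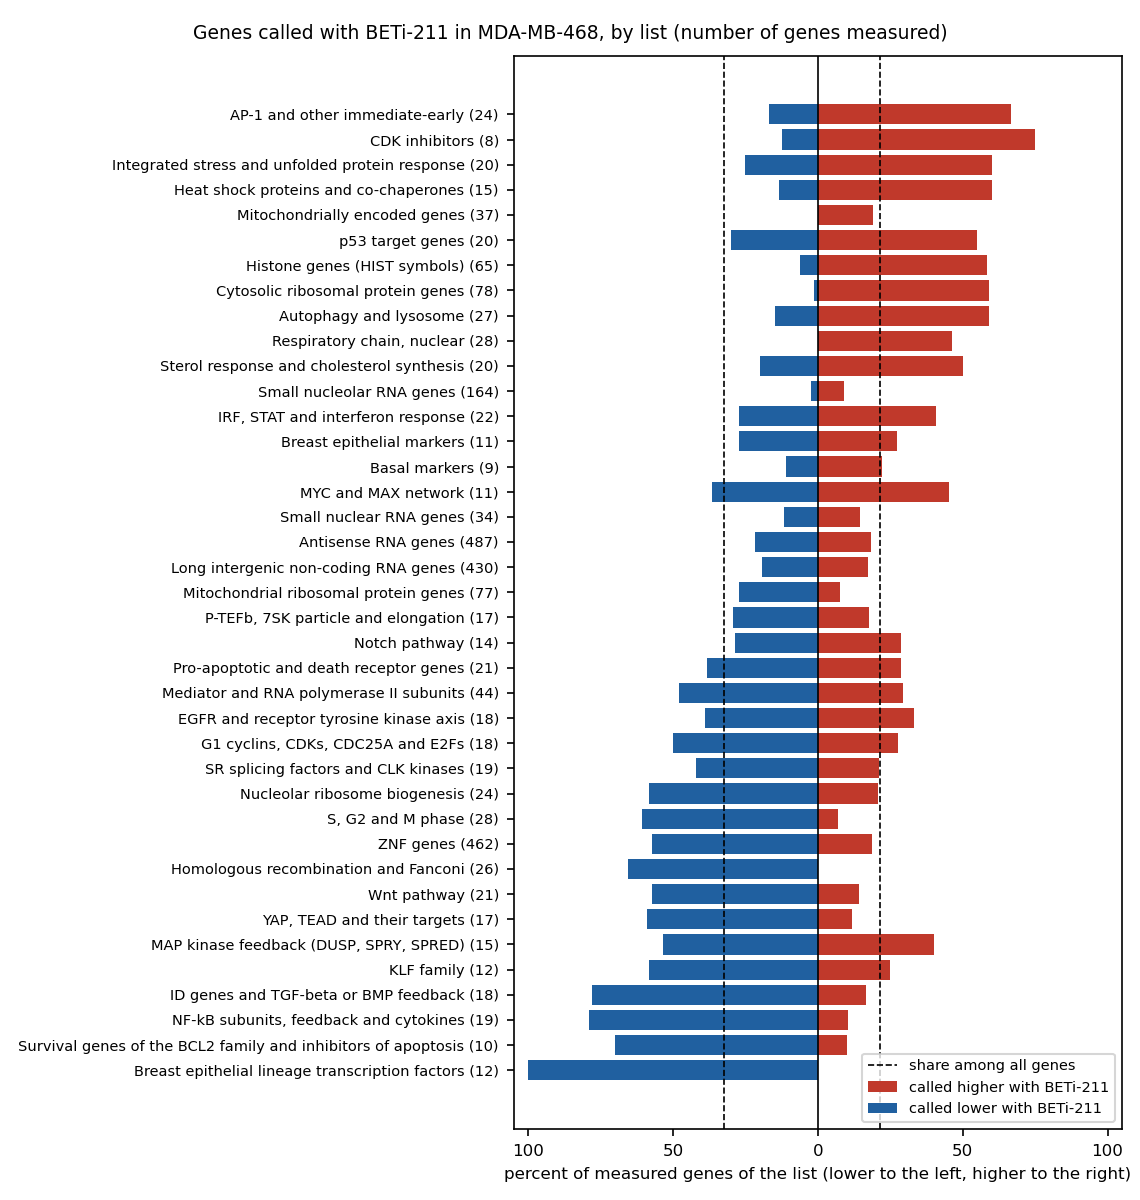
Percent of the measured genes of each list called higher (right, red) or lower (left, blue) with BETi-211 in MDA-MB-468. Lists with fewer than 8 measured genes are left out, and the number of genes measured is in brackets. Lists are ordered by median log2 change, with dashed lines at the shares among all genes, 21.3% higher and 32.5% lower. All 12 lineage transcription factors are lower, while CDK inhibitors (6 of 8) and immediate-early genes (16 of 24) are mostly higher.

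The response was set beside that of MDA-MB-157 and MDA-MB-231, each measured against its own 4 controls. Most large changes of MDA-MB-468 had the same direction there: of the 192 genes that rose at least 2-fold, 172 (89.6%) were called higher in MDA-MB-157 and 173 (90.1%) in MDA-MB-231, where 14.9% and 18.7% of all genes were called higher. Of the 311 that fell, 273 (87.8%) were called lower in MDA-MB-157 and 256 (82.3%) in MDA-MB-231, where 30.9% and 31.4% of all genes were. Changes of at least 2-fold in both lines were fewer: 75 rises were shared with MDA-MB-157, 39.1% of the MDA-MB-468 list and 57.7% of the 130 in MDA-MB-157, and 95 with MDA-MB-231, 49.5% and 49.7% of 191. Shared falls numbered 79 (25.4%, and 61.2% of 129) with MDA-MB-157 and 108 (34.7%, and 52.2% of 207) with MDA-MB-231.

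The difference of the BETi-211 effect between lines was tested gene by gene in the same model. It was called for 3047 genes against MDA-MB-157 (21.6%), with 1343 higher (9.52%) and 1704 lower (12.1%) in MDA-MB-468, and for 3098 against MDA-MB-231 (21.9%), with 1263 higher (8.95%) and 1835 lower (13%). Among the genes chosen for a large change in MDA-MB-468, which favors larger values there, the rise was called larger in MDA-MB-468 than in MDA-MB-157 for 137 and smaller for 4, and the fall larger for 227 and smaller for 4. Against MDA-MB-231 the counts were 107 and 17 for rises and 206 and 17 for falls. Of the 311 genes that fell, 32 were under 1 FPKM in MDA-MB-157 and 43 in MDA-MB-231.

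FOXI1 was such a gene, at 0 to 0.0243 FPKM in all MDA-MB-157 libraries and at 0 to 0.00909 FPKM in all MDA-MB-231 libraries of these groups, so that its effect differed by -2.80 ± 0.07 and -2.78 ± 0.07 (SE) from these lines. EDN2 was also low in MDA-MB-157 and differed by -2.37 ± 0.06 (SE). MYC changed differently although all 3 lines expressed it: in MDA-MB-157 it had 30.7 and 33.0 FPKM with BETi-211, against 24.01 to 27.9 in the controls, a log2 change of 0.28, and in MDA-MB-231 it had 50.5 and 51.2 FPKM with BETi-211, against 69.1 to 81.5 in the controls, a change of -0.59. The effect in MDA-MB-468 minus that in MDA-MB-157 was -1.86 ± 0.09 (SE; adjusted p = 8.96e-10), and the difference from MDA-MB-231 was -0.999 ± 0.09 (SE; adjusted p = 6.63e-07). For FOS and DKK1 the differences from MDA-MB-157 were 0.00 ± 0.25 and -0.06 ± 0.09 (SE) and were not called, which does not show that the effects were equal. Against MDA-MB-231 the difference was called for DKK1 (-0.37 ± 0.09, SE; adjusted p = 0.00649) and not for FOS (0.52 ± 0.25, SE; adjusted p = 0.174).

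Some genes changed in opposite directions. DUSP10 rose in MDA-MB-468 but had 21.1 and 22.2 FPKM with BETi-211, against 32.8 to 35.9 in controls, in MDA-MB-157 and 9.42 and 9.80 FPKM, against 17.8 to 21.3, in MDA-MB-231, differences of effect of 1.81 ± 0.07 and 2.15 ± 0.07 (SE). ID4 and PIK3R1, the regulatory subunit of phosphoinositide 3-kinase, fell in MDA-MB-468 and rose in MDA-MB-231 by 1.74 and 1.69, differences of -2.56 ± 0.08 and -2.21 ± 0.11 (SE). Both also rose in MDA-MB-157, by 0.61 and 0.70. ID4 was low in the MDA-MB-231 controls, at 0.306 to 0.398 FPKM. CDKN1C rose by 1.59 in MDA-MB-468 and changed by -0.25 in MDA-MB-157, a difference of 1.84 ± 0.11 (SE). HEXIM1, BRD2 and CDKN1A rose in all 3 lines, by amounts that differed. The rise of HEXIM1 was smaller than in MDA-MB-157 (difference -0.88 ± 0.07, SE) and larger than in MDA-MB-231 (0.26 ± 0.07, SE), that of BRD2 was larger than in both (0.60 ± 0.06 and 0.23 ± 0.06, SE), and that of CDKN1A was larger than in MDA-MB-157 (0.98 ± 0.08, SE) and smaller than in MDA-MB-231 (-0.27 ± 0.08, SE). AP000692.10, the leading rise, was at most 0.778 FPKM in the BETi-211 libraries of the other lines, and its effect differed by 2.68 ± 0.13 and 2.46 ± 0.13 (SE).

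**Figure D5:**
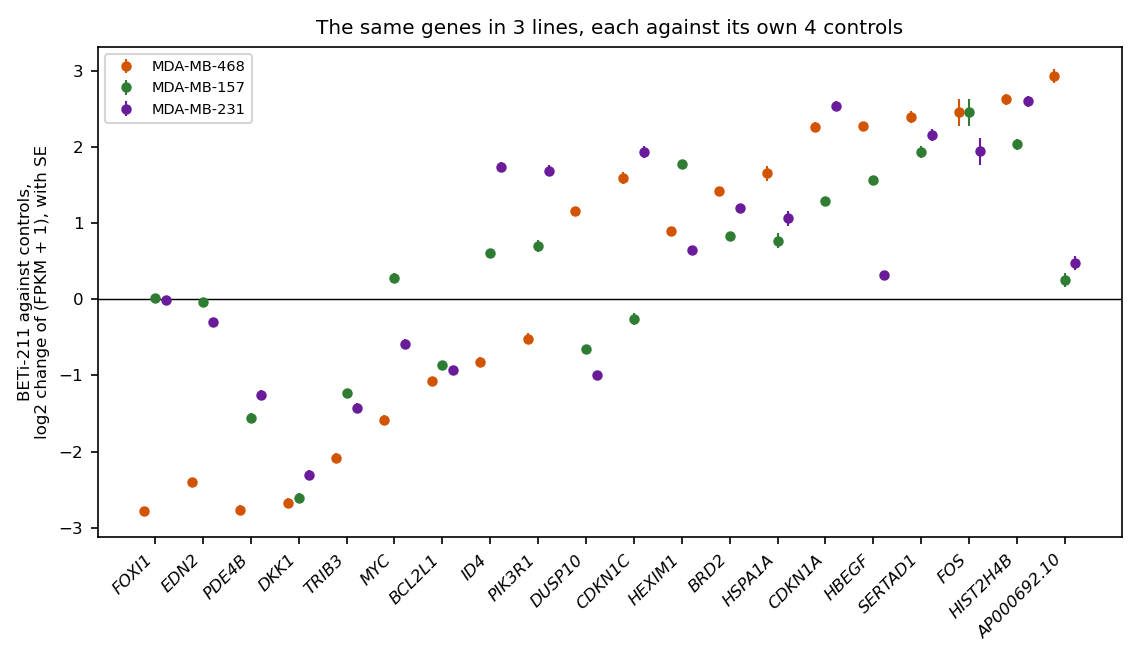
Log2 change of (FPKM + 1) with BETi-211 against controls, with its standard error, for 20 genes in MDA-MB-468, MDA-MB-157 and MDA-MB-231, each against the 4 controls of its own line. DKK1, FOS and SERTAD1 changed alike in direction in all 3 lines, FOXI1 and AP000692.10 changed far more in MDA-MB-468, and DUSP10, ID4 and PIK3R1 lie on opposite sides of 0.

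BETd-246 was given to MDA-MB-468 at 100 nM, a lower dose than the 1000 nM of BETi-211, and both compounds are set against the same 4 control libraries, so their values are given side by side without a test. FOXI1, PDE4B, DKK1 and FOS had log2 changes of -2.79, -2.77, -2.67 and 2.46 with BETi-211 and of -2.42, -2.79, -2.95 and 2.81 with BETd-246. MYC was at 18.5 and 20.95 FPKM with BETi-211 and at 5.03 and 5.70 FPKM with BETd-246. For several genes that rose with BETi-211, the BETd-246 libraries stood near or below the controls. CDKN1A had 82.8 and 90.4 FPKM with BETi-211 and 16.7 and 19.6 FPKM with BETd-246, HBEGF had 22.01 and 22.3 FPKM and 3.55 and 3.58 FPKM, and LFNG had 22.5 and 22.2 FPKM and 1.52 and 1.59 FPKM. BRD2 had 176.5 and 177.8 FPKM with BETi-211 and 28.6 and 27.3 FPKM with BETd-246, and HEXIM1 had 21.8 and 20.3 FPKM and 4.29 and 4.75 FPKM. For BCL2L1 the values were 13.5 and 13.8 FPKM with BETi-211 and 20.97 and 20.1 FPKM with BETd-246, and for MCL1 they were 122.9 and 134.3 FPKM and 38.3 and 41.4 FPKM.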

How the data were processed

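RNA was sequenced from MDA-MB-468 cells after 3 h. Per the labels' protocols, total RNA with an integrity number of 8 or greater was cleared of rRNA (Ribo-Zero), copied with random primers and turned into TruSeq v2 libraries, which carry no strand information. The submitters' processing notes name bcl2fastq (2.17.1.14), Bowtie (0.12.8) and the build GRCh38.p5, without their settings. How expression was computed, with which annotation and filter, is not given in the sources. The authors deposited FPKM values for 14114 genes in 24 libraries. The table does not state its unit, and FPKM was taken from the values: they are fractional and their sums differ between libraries. Every gene reached at least 1.22 FPKM in some group mean, so genes lower than this in every group were not analysed here. Depth is unknown without counts, so no counting interval was computed.

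Columns were matched to samples by name. Of the identifiers, 13951 matched GENCODE version 29, which gave types and coordinates (GRCh38, 1-based), and 12046 were protein-coding. The scale log2(FPKM + 1) was modeled in limma (version 3.58.1, under R version 4.3.3) with a coefficient for each of 12 groups of 2 libraries, a variance trend and 12 residual plus 3.32 prior degrees of freedom. BETi-211 was set against the average of its line's DMSO and Thalidomide groups. Tests were two-sided and adjusted over all 14114 genes, and the script was tested on simulated data. Named genes were the 12 largest falls and rises with at least 5 FPKM, the 10 largest protein-coding rises, a set of 21 genes, up to 4 per list by adjusted p, and the 3 largest line differences each way; a few of them are not reported here. The members, lists and rules were chosen with earlier results of these data known. Alternatives were another pseudocount, a filter, other scalings, other fits, each control alone, each library left out and a replicate block. Replicate numbers were not taken as pairing BETi-211 with the controls.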

Additional observations from a re-analysis of the deposited data

Results flagged for a closer look

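The effect of BETi-211 differed between lines, by the test of the difference (MDA-MB-468 minus the other line, log2 scale, limma, each adjusted p below 0.05). Against MDA-MB-157 the differences were -2.80 for FOXI1, -2.37 for EDN2, -1.86 for MYC and -0.88 for HEXIM1, and 1.81 for DUSP10, 1.84 for CDKN1C, 2.68 for AP000692.10, 0.60 for BRD2 and 0.98 for CDKN1A. Against MDA-MB-231 they were -2.78 for FOXI1, -2.56 for ID4, -2.21 for PIK3R1, -0.999 for MYC and -0.27 for CDKN1A, and 2.15 for DUSP10, 2.81 for RP1-34B20.4, 2.46 for AP000692.10, 0.26 for HEXIM1 and 0.23 for BRD2.

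In 6 of 168 named genes a single control library stood apart from the other 3, where chance alone gives about 1 in 20 groups. AJUBA was lowest with 28.93 FPKM in the first Thalidomide library, against 29.6 to 29.8 in the others. E2F8 was highest with 7.503 FPKM and RP11-763B22.3 with 0.3584 FPKM in the first DMSO library. MET was highest with 78.13 FPKM and HIST2H2BE lowest with 86.35 FPKM in the second DMSO library, and BAG3 was highest with 11.48 FPKM in the second Thalidomide library. In all 6 genes both BETi-211 values lay outside the range of the controls, but named genes were chosen largely by the size or adjusted p of their change. Among all genes, both values were above every control in 27.2% and below every control in 37%.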

How the results depend on the processing

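With a pseudocount of 0.1 in place of 1, changes of at least 2-fold numbered 878 (324 higher, 554 lower) in place of 503, since low genes are then less damped. CDK6 (0.06), KRT17 (-0.03) and KRT5 (-0.13, called lower, against an uncalled 0.08) had the other sign under quantile normalization; the cause was not tested. Of 193 named genes, 181 were called, 169 of them under every one of 18 alternatives, and 12 lost the call in at least 1. Named genes were chosen largely by the size or adjusted p of their change. A higher rate of calls than the 53.9% among all genes, and of calls kept, therefore follows from that choice. Leaving out a library, where the lone library of a group is assumed to vary like the others, gave 6051 to 7254 calls in place of 7601, 499 to 513 changes of at least 2-fold, 2239 to 3158 differences from MDA-MB-157 in place of 3047, and 2285 to 4398 from MDA-MB-231 in place of 3098. Replicate numbers were not taken as pairing the libraries: the deviations of the first replicates correlated across genes at -0.06 and -0.12 between BETi-211 and the DMSO and Thalidomide groups, against 0.35 between DMSO and Thalidomide, and at 0.07 to 0.21 with BETd-246; with a replicate block 7619 genes were called, with 2964 and 3032 differences from the lines. The split of higher and lower calls stands in the report for each scaling. The table holds no counts, so precision at low levels could not be judged beyond the spread of 2 BETi-211 and 4 control libraries.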

Other observations

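Non-coding genes took part in the response without a common direction. Of 430 long intergenic non-coding RNA genes, 74 rose and 83 fell, and of 487 antisense RNA genes, 89 rose and 106 fell, shares below those among all genes, with medians of 0.00 as deposited and between -0.03 and 0.04 under the other scalings. OSER1-AS1 had 15.2 and 13.7 FPKM with BETi-211, against 5.29 to 5.74 in the controls, a rise of 1.24 on the log2 scale. HOTAIR, a non-coding RNA of the HOXC cluster that has been linked to Polycomb, had 2.99 and 2.96 FPKM with BETi-211, against 5.61 to 6.46 in the controls, a fall of 0.85; it overlaps HOXC11 on the other strand, which fell by 1.39, and reads of the pair cannot be told apart. LINC00657, the abundant RNA also known as NORAD, had 39.4 and 40.4 FPKM with BETi-211, against 60.4 to 65.9 in the controls, a fall of 0.64.

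Of 164 small nucleolar RNA genes, 15 rose (9.15%) and 4 fell (2.44%), below the 21.3% and 32.5% among all genes. The other 145 were not called, and the median of 0.08 was 0.00 to 0.13 across scalings. SNORD14D had 26.9 and 31.1 FPKM with BETi-211, against 11.4 to 13.8 in the controls, a rise of 1.15, and it lies within HSPA8, a heat shock gene that rose by 0.59. SNORD46 had 3.49 and 2.83 FPKM with BETi-211, against 6.26 to 9.36 in the controls, a fall of 1.06. Of 34 small nuclear RNA genes, 5 rose (14.7%) and 4 fell (11.8%), also below the shares among all genes. Their median of 0.03 was -0.10 without the first BETi-211 library and 0.16 without the second.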
